A study of Mus musculus with 4 samples.

Results

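Genes of the unfolded protein response and of protein folding in the endoplasmic reticulum (ER) were compared in 4T1 cells, a mouse mammary carcinoma line that serves as a model of metastatic triple-negative breast cancer. The 10 genes chosen were Hspa5, Hsp90b1, Dnajb9, Dnajc3, Xbp1, Herpud1, Sdf2l1, Creld2, Manf and Hyou1. A gene was taken from a row of the expression table that carried its symbol and no other, and 9 of the 10 had such a row, each exactly 1, among 30142 genes in all. Manf, a small secreted ER protein, shares its row with Rbm15b and was not analysed here. The study held 4 arrays of total RNA, 2 from cells with a scramble control (NC) and 2 from cells labelled shMCT-1, in which MCT-1 was to be silenced by a short hairpin RNA. The shMCT-1 cells are described as clones selected in puromycin, and no selection of the NC cells is named. All 4 came from 1 cell line grown in the same kind of medium, and the labels name no drug that would provoke ER stress. The 2 arrays of each group are described as independent biological replicates, and whether they were separate clones or cultures of 1 clone is not said. Every SD below thus measures the spread between these samples, and limma p-values weigh a difference against that spread, moderated over all rows. In RNA from a whole culture, fewer cells that make a transcript and less of it per cell cannot be told apart.

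The ER folds secreted and membrane proteins, and its chief chaperone is Hspa5 (BiP), an Hsp70 that binds unfolded chains. When unfolded proteins build up, BiP leaves the sensors IRE1, PERK and ATF6. IRE1 then splices Xbp1 mRNA, ATF6 is cut into a transcription factor, and PERK favours translation of Atf4 and with it Ddit3 (CHOP). The spliced XBP1 and ATF6 proteins raise transcription of chaperones, co-chaperones and the degradation machinery, and secretory and tumour cells rely on this response.

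A promoter feature shared by several members is shown first, since it groups them by a property other than their level. RefSeq promoter windows (GRCm38.p6), from 250 bases before to 50 bases after the annotated start, were found for 8 of the 10 genes, and Manf and Hyou1 were not in the table. Both strands were searched for the ER stress element ERSE (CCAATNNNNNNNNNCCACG), bound by ATF6 with NF-Y, for ERSE-II (ATTGGNCCACG), which carries the same outer letters in another arrangement, for a core of the XBP1 and ATF6 site UPRE (TGACGTGG), and for the C/EBP-ATF response element CARE of ATF4 (TGATGNAA). An exact ERSE lay in 4 of the 8 windows, those of Hspa5, Hsp90b1, Dnajc3 and Creld2, against 0.119% of 32851 promoter windows in the table. ERSE-II was found in Herpud1 alone among the 8 and in 0.0365% of all windows, and CARE also in Herpud1 alone among the 8 and in 3.97% of all. The UPRE core was in 0 of the 8 and in 0.676% of all, and Dnajb9, Xbp1 and Sdf2l1 held none of these letters in this window. With 1 mismatch allowed, ERSE was found in 5 of the 8, with Herpud1 added, and in 1.5% of all windows.

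The stretches that hold a match are given up to the base before the annotated start, 5′ to 3′ on the gene's strand, with the fixed letters of each match in capitals. Those of Hspa5 (chr2:34771940-34772089, plus strand), Dnajc3 (chr14:118937782-118937931, plus strand) and Creld2 (chr15:88819496-88819645, plus strand) hold 1 ERSE each, reversed in Creld2. That of Hsp90b1 (chr10:86705445-86705676, minus strand) holds 2, the second reversed. That of Herpud1 (chr8:94386279-94386428, plus strand) holds a reversed CARE and, nearer the start, an ERSE-II.
Hspa5: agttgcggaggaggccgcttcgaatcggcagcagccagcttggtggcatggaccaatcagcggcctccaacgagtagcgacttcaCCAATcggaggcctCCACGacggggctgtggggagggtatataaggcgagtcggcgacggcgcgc
Dnajc3: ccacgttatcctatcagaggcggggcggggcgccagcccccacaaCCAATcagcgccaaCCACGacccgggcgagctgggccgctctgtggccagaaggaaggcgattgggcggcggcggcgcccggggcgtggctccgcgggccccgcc
Creld2: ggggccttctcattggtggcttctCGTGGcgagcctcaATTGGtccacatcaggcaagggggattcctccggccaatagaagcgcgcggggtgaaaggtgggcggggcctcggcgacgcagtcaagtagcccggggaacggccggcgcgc
Hsp90b1: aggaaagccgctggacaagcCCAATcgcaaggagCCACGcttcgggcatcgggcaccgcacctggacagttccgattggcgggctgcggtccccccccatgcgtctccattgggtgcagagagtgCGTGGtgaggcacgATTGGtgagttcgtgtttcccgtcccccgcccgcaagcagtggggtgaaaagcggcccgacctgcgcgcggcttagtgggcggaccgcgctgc
Herpud1: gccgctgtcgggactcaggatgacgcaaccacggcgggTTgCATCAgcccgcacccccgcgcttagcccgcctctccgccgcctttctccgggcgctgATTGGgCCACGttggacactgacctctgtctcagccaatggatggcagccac

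**Figure D1:**
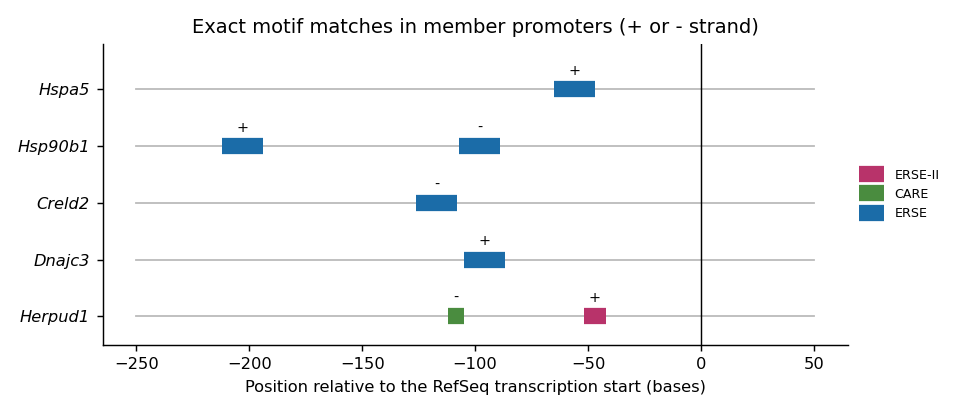
Position of exact motif matches in the promoter windows of the 5 genes with a match, in bases from the RefSeq transcription start (vertical line), with the strand above each block. The ERSE blocks lie from 212 to 47 bases before the start, and Herpud1 has an ERSE-II from 52 to 42 bases before it.

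Values are log2 expression summaries, on which a difference of 1 is a 2-fold change, and differences are shMCT-1 minus NC. The targeted gene Mcts1 was 7.86 and 8.05 on the NC arrays and 7.81 and 7.89 on the arrays labelled shMCT-1, a difference of -0.10 (95% interval -0.42 to 0.22, adjusted p = 0.945, limma) that was -0.20 without NC replicate 1. Silencing could not be seen at this row, so the sign of every difference below rests on the label alone. NC replicate 1 stood apart from the other 3 arrays. It was the highest array for all 11 measured of 12 interferon marker genes, against 26.3% of all genes, by a median of 3.43 over the mean of the others. For Usp18, an interferon-induced protease, it read 12.30, against 6.91 on the other NC array and 7.33 and 5.72 on the shMCT-1 arrays. These markers were listed when this array was already known to stand apart, so their count describes the array and does not test it. Values with and without that array are therefore set side by side below.

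With all arrays, the main lumenal chaperones BiP and GRP94 had differences smaller than their standard errors. In the order replicate 1, replicate 2, which holds for every pair of values below, Hspa5 was 15.73 and 15.40 in NC and 15.62 and 15.55 in shMCT-1. Both shMCT-1 arrays lay between the NC arrays. The difference was 0.017 (SE 0.149, 95% interval -0.37 to 0.41, adjusted p = 0.995, limma), it was 0.18 without NC replicate 1, and its sign turned under a further quantile normalisation (-0.077) and median centring (-0.0090). Hsp90b1 (GRP94), the Hsp90 of the ER lumen, was 15.98 and 15.77 in NC and 15.83 and 15.67 in shMCT-1, so the groups overlapped. Its difference was -0.13 (SE 0.134, interval -0.48 to 0.22) and -0.019 without NC replicate 1. For both genes the interval holds 0 and changes in either direction.

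Hyou1, a large Hsp70 relative that exchanges nucleotide on BiP, was 9.74 and 9.88 in NC and 9.81 and 10.09 in shMCT-1. The groups overlapped, and the difference was 0.14 (SE 0.143) with all arrays, 0.070 with NC replicate 1 left out and 0.0015 with shMCT-1 replicate 2 left out, so it rested on that shMCT-1 array. Creld2, an ER protein with EGF-like repeats that is induced by ER stress, was 10.90 and 11.00 in NC and 11.03 and 11.49 in shMCT-1. The groups did not overlap, but the gap between the nearest arrays, 0.03 between NC replicate 2 and shMCT-1 replicate 1, was smaller than the 0.46 between the shMCT-1 arrays. The difference was 0.31 (1.24-fold, SE 0.184, adjusted p = 0.899, limma), 0.26 with NC replicate 1 left out and 0.078 with shMCT-1 replicate 2 left out. Creld2 lies on chromosome 15, where 204 genes with a mean of at least 8 had a median difference of 0.20, and the part of this in the result was not tested.

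Sdf2l1, a lumenal partner of BiP and its DnaJ proteins, was 9.77 and 9.06 in NC and 9.21 and 9.11 in shMCT-1. NC replicate 1 was high and the other 3 arrays lay within a narrow range. The difference was -0.25 (SE 0.255) with all arrays and turned to 0.10 without NC replicate 1.

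Dnajb9 and Dnajc3, the DnaJ co-chaperones among the members, read lower on the arrays labelled shMCT-1, and neither passed after adjustment. Other ER DnaJ genes went both ways. Dnajc10 was at 0.30 (0.10 without NC replicate 1), Dnajb11 at 0.15 (-0.083 likewise) and Dnajb12 at 0.086 (0.033 likewise). Dnajc1 was at -0.15 (-0.071 likewise), Dnajb14 at -0.14 (-0.079 likewise) and Sec63 at -0.064 (-0.11 likewise). Dnajb9 (ERdj4), which helps clear misfolded chains and restrains IRE1, was 10.02 and 9.46 in NC and 9.24 and 9.32 in shMCT-1. The groups did not overlap, and NC replicate 1 was 0.55 above NC replicate 2. The difference was -0.46 (1.38-fold lower, SE 0.208, interval -1.01 to 0.08, adjusted p = 0.883, limma), and -0.19 (interval -0.61 to 0.24) without that array.

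Dnajc3 (p58IPK), a BiP co-chaperone also known as an inhibitor of PERK, kept its difference without NC replicate 1. It was 10.50 and 10.64 in NC and 10.07 and 10.20 in shMCT-1. NC replicate 1 was here the lower of the NC arrays, and both shMCT-1 arrays lay below both of them. The difference was -0.43 (1.35-fold lower, SE 0.119, interval -0.75 to -0.12, adjusted p = 0.882, limma), and -0.50 (1.42-fold lower, interval -0.94 to -0.06) without NC replicate 1. With any 1 array left out it ran from -0.50 to -0.36, beyond the SD between replicates of 0.099 in NC and 0.093 in shMCT-1 (n = 2 each). Dnajc3 was the 1 member with an unadjusted p under 0.05 in limma, lower, against 5.59% of all genes in either direction and 3.28% lower, and among the 6742 genes with a mean of at least 8, which all 9 members reached, 8.84% and 5.25%. It was also the 1 member at that p without NC replicate 1, against 2.51% of all genes and 3.25% of the brighter ones. It lies on chromosome 14, where 179 genes with a mean of at least 8 had a median difference of -0.17, and -0.21 without NC replicate 1, and the part of this in the result was not tested.

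Xbp1, the transcription factor whose mRNA IRE1 splices, was 10.40 and 9.88 in NC and 9.73 and 9.85 in shMCT-1. The row gives 1 level for the gene and does not separate the spliced from the unspliced form. The groups did not overlap, yet NC replicate 2 and shMCT-1 replicate 2 differed by 0.02. The difference was -0.34 (1.27-fold lower, SE 0.201) with all arrays and -0.085 without NC replicate 1.

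Herpud1, an ER membrane protein of the degradation machinery, varied most between arrays among the 9. It was 12.34 and 9.98 in NC and 10.12 and 9.87 in shMCT-1. NC replicate 1 was 5.14-fold above NC replicate 2, and the other 3 arrays lay close together with NC replicate 2 between the shMCT-1 arrays. The difference of -1.16 (2.24-fold lower, SE 0.779, interval -3.20 to 0.88, adjusted p = 0.906, limma) became 0.018 (interval -0.47 to 0.51) without NC replicate 1. Herpud1 lies on chromosome 8, where 327 genes with a mean of at least 8 had a median difference of -0.21. That median was -0.25 without NC replicate 1, where Herpud1 was at 0.018, and its part in the result was not tested.

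**Figure D2:**
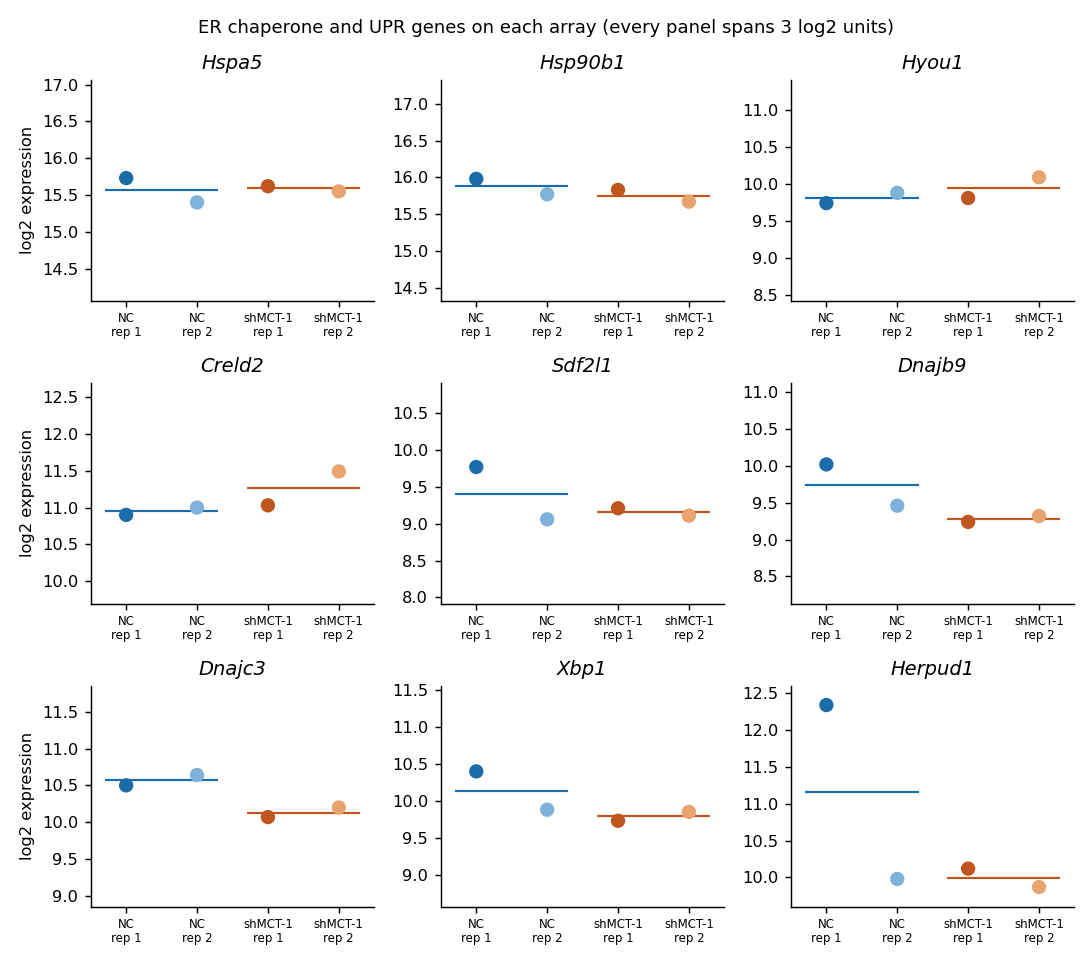
Log2 expression of the 9 measured members on each array, with 1 point per array and a line at each group's mean (n = 2 arrays per group). Every panel spans 3 log2 units. Herpud1 is 12.34 on NC replicate 1 and at most 10.12 on the others, and both shMCT-1 points of Dnajc3 lie below both NC points.

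As a group the members had more lower than higher values with all arrays, and about equal numbers of each without NC replicate 1. With all arrays 6 of 9 were lower and 3 higher, with a median difference of -0.25, whereas 45.8% of all genes and 44.5% of those with a mean of at least 8 were lower, and the median over all genes was 0.014. Without NC replicate 1, 4 were lower and 5 higher and the median was 0.018, beside 47.1% and 53.6% lower and a median of 0.010 over all genes. Both shMCT-1 arrays were then below the remaining NC array for 3 members (Dnajb9, Dnajc3 and Xbp1), against 28.6% of all genes and 34% of the brighter ones, and above it for 3 (Hspa5, Sdf2l1 and Creld2), against 32.8% and 27.4%. The groups did not overlap for 4 of 9 members, Dnajb9, Dnajc3 and Xbp1 lower and Creld2 higher, against 34.9% of all genes and 40.1% of the brighter ones. By direction the background was 16% lower and 19% higher over all genes, and 20.2% and 19.9% over the brighter ones. The count of 4 is near the background. No member passed limma after adjustment over all rows, as 0 of 30142 genes did (0%), while 1686 genes had an unadjusted p under 0.05. An exact permutation of 2 against 2 arrays cannot give a two-sided p below 0.333, so the design itself could not reach 0.05 for a single gene by that test.

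**Figure D3:**
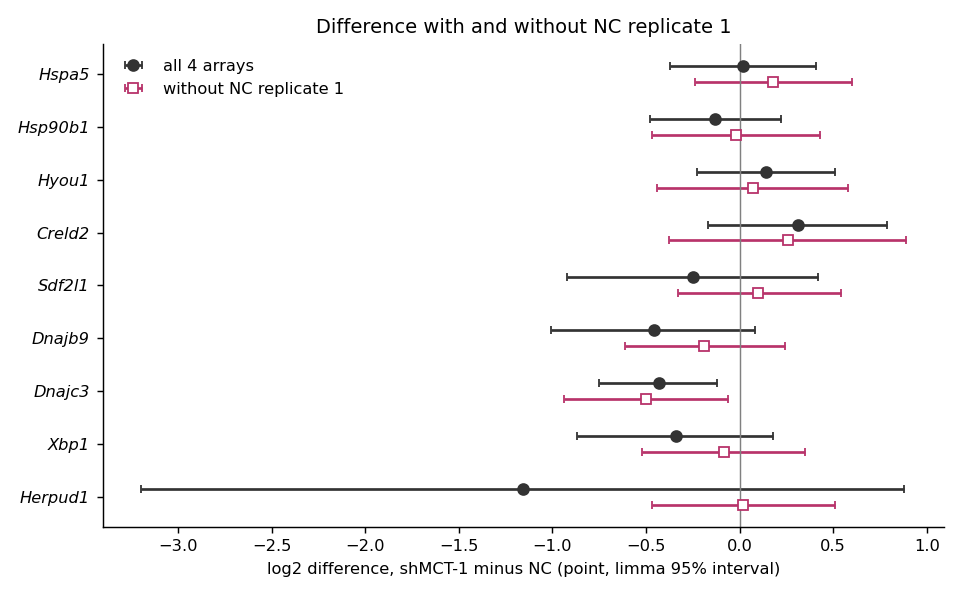
Log2 difference, shMCT-1 minus NC, of each member with its limma 95% interval, for all 4 arrays (filled circles) and without NC replicate 1 (open squares). Herpud1 moves from -1.16 to 0.018 and Dnajc3 from -0.43 to -0.50, and the intervals of Dnajc3 are the ones that leave out 0 in both fits.

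Set against the mean of the other 3 arrays, NC replicate 1 was higher by a median of 0.23 over the 9 members. The same median was -0.013 over all genes and -0.069 over those with a mean of at least 8. NC replicate 1 was the highest of the 4 arrays for 6 members, against 26.3% of all genes and 26.4% of the brighter ones. It was the lowest for 2, Creld2 and Hyou1, against 31% and 43.2%. It was over 0.5 above the mean of the others for 4, against 4.37% and 7.56%, and over 1 above it for 1, against 1.1% and 2.57%. Herpud1 led at 2.35, the rank 18 excess among 6742 such genes, followed by Dnajb9 at 0.68, Sdf2l1 at 0.64 and Xbp1 at 0.58. The 4 genes with an exact ERSE lay below these, at 0.23 for Hsp90b1, 0.21 for Hspa5, 0.20 for Dnajc3 and -0.27 for Creld2. This grouping was noticed after the values were seen and is given with no test. For Dnajc3, NC replicate 1 (10.50) read below NC replicate 2 (10.64), and its 0.20 came from the lower shMCT-1 arrays. Hyou1, at -0.19, was not in the promoter table.

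The PERK, ATF4 and CHOP arm showed the same array more strongly. Of 13 genes, all measured, NC replicate 1 was the highest array for 10, beside 26.3% of all genes. It exceeded the mean of the others by over 1 for 5, beside 1.1% of all genes. The median excess was 0.66, beside -0.013 over all genes. Of these 13 genes 6 have a mean of at least 8. Ddit3 (CHOP), the stress-induced C/EBP factor, was 10.39 and 6.78 in NC and 6.65 and 6.34 in shMCT-1, a 12.2-fold gap between the NC arrays. Trib3, a pseudokinase induced by ATF4 and CHOP, was 8.49 and 5.82 against 6.68 and 6.55. Both genes were highest on NC replicate 1, but for Trib3 the shMCT-1 arrays also lay above NC replicate 2. Nupr1, a small stress-induced nuclear protein, was 12.41 and 9.56 against 10.79 and 9.55, and Ddit4, an inhibitor of mTORC1, was 14.11 and 11.72 against 12.81 and 11.09. For Nupr1 and Ddit4, shMCT-1 replicate 1 was also above NC replicate 2 and shMCT-1 replicate 2.

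The direction of this arm turned with the NC array that was kept. Its median difference was -0.033 with all arrays, 0.38 without NC replicate 1 and -0.51 without NC replicate 2. Against NC replicate 2 alone, 11 of 13 genes were higher, beside 52.9% of all genes, and for 9 both shMCT-1 arrays lay above it, beside 32.8%. Chac1, a glutathione-degrading enzyme induced by ATF4, was 6.14 on NC replicate 2 and 7.63 and 7.34 on the shMCT-1 arrays, but 8.30 on NC replicate 1. Its difference was 0.27 (SE 0.715) with all arrays and 1.35 without NC replicate 1. Atf4 itself was 9.94 and 9.37 in NC and 10.00 and 10.18 in shMCT-1, a difference of 0.44 (SE 0.219) that was 0.72 without that array. Trib3 went from -0.54 to 0.80. With limma adjusted over all rows 0 of the 13 passed with or without NC replicate 1, and 3 had an unadjusted p under 0.05 without it, against 2.51% of all genes. Since the 3-array fit has 1 NC array, its spread is taken from the shMCT-1 arrays and the moderation.

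**Figure D4:**
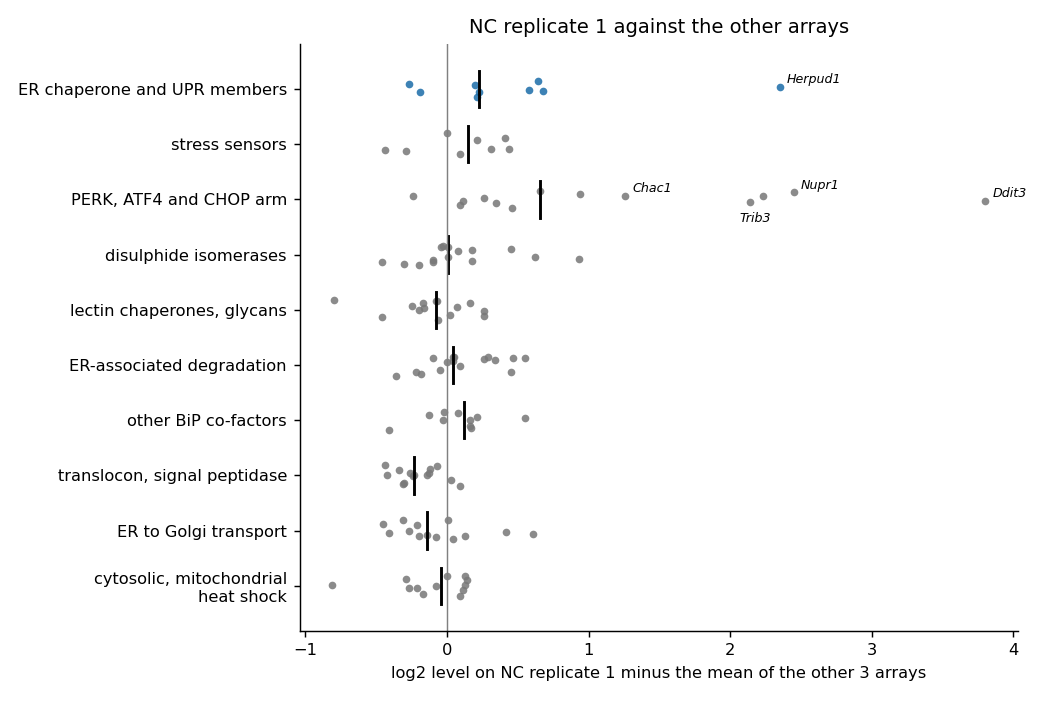
Log2 level on NC replicate 1 minus the mean of the other 3 arrays, with 1 point per gene and a bar at each list's median. The members (blue) have a median of 0.23 with Herpud1 at 2.35, and the PERK, ATF4 and CHOP arm reaches 3.80 at Ddit3.

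The sensors of ER stress were divided evenly. Of 8 measured of 10 listed, 4 were higher and 4 lower, with a median of -0.011, beside 45.8% lower and a median of 0.014 over all genes, and the counts were the same and the median -0.010 without NC replicate 1. Ern1 (IRE1) was 6.52 and 6.71 in NC and 6.71 and 7.03 in shMCT-1, a difference of 0.25 (SE 0.157) that was 0.16 without NC replicate 1. Atf6 had a difference of 0.16 (SE 0.141), or 0.23 without that array, and Eif2ak3 (PERK) was at -0.18 (SE 0.204) and 0.069 without NC replicate 1. The largest difference was that of Creb3, a membrane-bound factor processed like ATF6, at 8.33 and 8.29 in NC and 7.86 and 7.92 in shMCT-1. Its groups were separate and the difference was -0.42 (1.34-fold lower, SE 0.105, adjusted p = 0.882, limma), and -0.40 without NC replicate 1. Creb3l2, of the same family, was at -0.27 (SE 0.159) and at -0.11 without NC replicate 1.

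Genes of ER-associated degradation, the pathway in which Herpud1 acts, were mostly lower, with small differences. Of 16 measured of 18 listed, 13 were lower and 3 higher, with a median of -0.16, beside 45.8% lower and a median of 0.014 over all genes. Without NC replicate 1, 12 were lower with a median of -0.12, beside 47.1%. The median was -0.046 without shMCT-1 replicate 1. The groups did not overlap for 6 lower and 2 higher genes, beside 16% and 19% of all genes. Os9, a lectin that delivers misfolded glycoproteins, was 9.61 and 9.52 in NC and 9.24 and 9.18 in shMCT-1 (difference -0.36, SE 0.107). Edem1 and Edem2, which trim mannose from such glycoproteins, were at -0.32 (SE 0.104) and -0.39 (SE 0.140), and Sel1l, the scaffold of the HRD1 ligase, was at -0.42 (SE 0.171). The first 3 of these had an unadjusted p under 0.05, beside 3.28% of all genes lower at that p, and 0 passed over all rows in limma. Without NC replicate 1 the differences of the 4 genes were -0.31, -0.29, -0.24 and -0.22 in the order named, and 0 of the list had an unadjusted p under 0.05. Os9, Edem1, Edem2 and Sel1l lie on chromosomes 10, 6, 2 and 12, whose genes with a mean of at least 8 had median differences of -0.040, 0.077, 0.17 and -0.12, and the part of these in the results was not tested.

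Enzymes of disulphide formation went both ways. Of 15 measured of 16 listed, 10 were lower and 5 higher, beside 45.8% of all genes lower. The median was -0.092, against 0.014 over all genes, and it was -0.13 with NC replicate 1 left out and -0.023 with shMCT-1 replicate 1 left out. Txndc5, a disulphide isomerase, was 12.14 and 12.28 in NC and 11.68 and 11.91 in shMCT-1, a difference of -0.42 (SE 0.134, adjusted p = 0.882, limma) and -0.49 without NC replicate 1. Ero1b, an oxidase that recharges the isomerases, was at -0.66 (SE 0.261) and at -0.29 without NC replicate 1, which was 0.93 above the mean of the other arrays. Ero1a, its relative, and Pdia6, a further isomerase, were at -0.36 and -0.32 with all arrays and at -0.082 and -0.14 without that array.

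The lectin chaperones and glycan-processing enzymes had a median of -0.058, with 10 of 14 lower, and -0.11 without NC replicate 1, with 13 of 14 lower, beside 45.8% and 47.1% of all genes. The median changed sign when NC replicate 2 or shMCT-1 replicate 1 was left out, to 0.034 and 0.052. Calr, the lumenal lectin chaperone, was 15.35 and 15.19 in NC and 15.02 and 15.07 in shMCT-1 (difference -0.23, SE 0.115, and -0.15 without NC replicate 1). Mlec, a lectin that binds newly made glycoproteins, was at -0.31 (SE 0.109) and at -0.27 without NC replicate 1, and Mogs, the first glucosidase, was at 0.45 (SE 0.321) and 0.066 without that array. A further list held 10 genes, some of them BiP co-factors and others related DnaJ or ER proteins. Of these 8 were lower and 2 higher, with a median of -0.10. Without NC replicate 1, 9 were lower with a median of -0.081, beside the same shares of all genes. The largest differences were those of Sil1, a nucleotide exchange factor of BiP, at -0.36 (SE 0.189) and -0.13 without NC replicate 1, and Sdf2, the relative of Sdf2l1, at -0.24 (SE 0.132) in both fits.

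**Figure D5:**
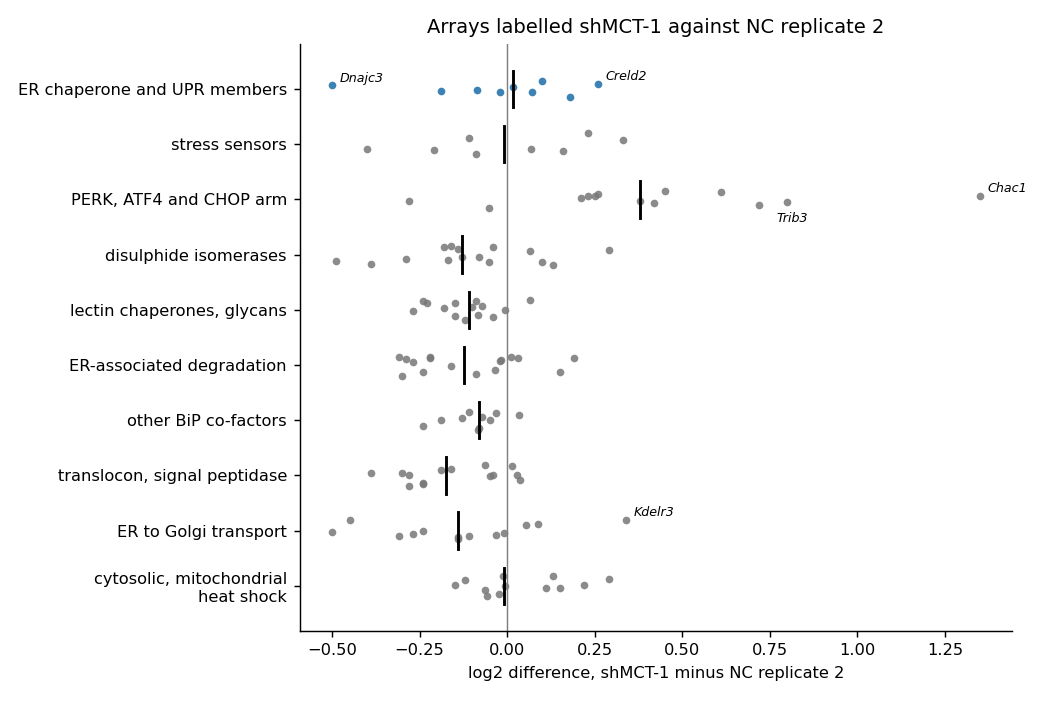
Log2 difference between the mean of both shMCT-1 arrays and NC replicate 2, with 1 point per gene and a bar at each list's median. The members (blue) run from -0.50 at Dnajc3 to 0.26 at Creld2 around a median of 0.018, and the PERK, ATF4 and CHOP arm has a median of 0.38 with Chac1 at 1.35.

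Among genes outside the list, the 5 whose pattern over the 4 arrays was most like the members' median pattern were Ubap1, Sppl2a, Retreg2, Rab28 and Mtmr14. The measure was the root mean square distance between profiles centred on each gene's mean, over 4 arrays and genes with a mean of at least 8, and it ran from 0.0345 for Ubap1 to 0.0354 for Mtmr14. Ubap1 was 10.21 and 9.94 in NC and 9.95 and 9.89 in shMCT-1, close to the members' median pattern of 0.17 above the gene mean on NC replicate 1 and 0.087, 0.075 and 0.15 below it on the others.

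Cell identity was checked against markers. Of 7 epithelial markers, Epcam, Cdh1, Krt8, Krt18, Krt19 and Krt14 were above the upper quartile of all rows on every array. Cldn7 was above it on the shMCT-1 arrays (6.93 and 6.88) and below it on the NC arrays (5.35 and 5.15, against quartiles of 5.42 and 5.50). The summed signal of the 7 on the log2 scale was 17.74 and 17.88 in NC and 17.59 and 17.62 in shMCT-1. The sum hides larger differences between single markers than any member showed without NC replicate 1. Krt14, a basal keratin, was 12.92 and 12.76 in NC and 11.12 and 11.20 in shMCT-1, a difference of -1.68 (SE 0.118, adjusted p = 0.669, limma) that was -1.60 without NC replicate 1. Krt19, a luminal keratin, was at -1.14 (SE 0.184) and -1.0, and Cldn7, a tight junction claudin, at 1.66 (SE 0.121) and 1.75, with separate groups for all 3. Epcam, Krt8 and Krt18 were at 0.020, -0.028 and -0.022, and Cdh1 at -0.30. Krt14, Krt19 and Cldn7 thus differed between the groups far more than Epcam, Krt8 and Krt18, and none of the 7 markers passed after adjustment. The part of these differences in the members' values was not tested. The 8 measured markers of lymphocytes and of plasma cells, the latter with a large ER, and all 5 endothelial ones were below that quartile on every array. So were 5 of 6 fibroblast markers, and 7 of 9 macrophage and granulocyte markers, among them Ptprc, Adgre1 and Itgam. The 2 exceptions, Cd68 and Csf1r, were highest on NC replicate 1, at 10.15 and 6.07 there, against 8.26 and 4.61 on the other NC array. The summed signal of that list was 10.34 on NC replicate 1 and from 8.72 to 9.27 on the other arrays. Postn, the fibroblast exception, was 7.02 on NC replicate 1 and from 5.99 to 6.19 on the others. The part of these genes in the excess of Herpud1 and the other members on NC replicate 1 was not tested.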

How the data were processed

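The authors deposited log2 expression values for 65956 rows on 4 arrays, and per the submitters' processing notes RMA and the Affymetrix Expression Console made them. Software versions, RMA's options and any genome build: not given in the sources used here. A log2 scale was read from the range of 1.29 to 19.9. RMA can compress differences of dim and very bright rows. Of the rows, 30604 had 1 gene symbol, 2146 had several and 33206 were not in the probe table. Symbols were updated through gene IDs (827 rows, RefSeq table of GRCm38.p6), and a gene with several rows was represented by the brightest. All 4 columns were used and 0 were set aside.

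The model was fitted by limma 3.58.1 (R 4.3.3) on every row (2 residual and 2.72 prior degrees of freedom, two-sided, Benjamini-Hochberg over all rows, threshold 0.05). A check on simulated arrays of this design asked only whether median estimates lay near planted changes, and did not assess error control. The number of arrays limits precision. Lists were described by counts and medians, with shares or medians over all genes or over genes with a mean of at least 8. Members and lists were chosen with earlier results of these data known. Genes were named by rule: the members, Mcts1, and of each list the largest differences, unadjusted p under 0.05 and largest excesses on NC replicate 1. Atf4, Chac1, Ern1, Atf6, Kdelr1, Kdelr2, Dnajc10, Dnajb11, Dnajb12, Sec63, Krt14, Krt19, Cldn7, Cd68, Csf1r and Postn were added after their values were seen. Alternatives covered the variance model, threshold, filters, normalisation, array weights, the replicate block, a gene's rows and each array left out. Comparisons with NC replicate 2 alone were added after seeing the data.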

Additional observations from a re-analysis of the deposited data

How the results depend on the processing

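Under all 15 alternatives 0 rows passed the adjusted threshold, and no member had an adjusted p under 0.05 in limma, the lowest being 0.319. The replicate numbers are shared by the groups, but nothing in the labels ties same-numbered arrays together. The differences between replicates 1 and 2 of the groups correlated at 0.419 over all rows, 0.678 over the members and 0.800 over genes with a mean of at least 8. In this balanced design a replicate block cannot change the differences or the separation. The members' median of -0.25, the 3 higher and the 4 separate were therefore fixed in advance. The number at an unadjusted p under 0.05 in limma could move and was 1 with the block. With 1 array left out, the members' median ran from -0.36 to 0.018, the number higher from 2 to 5, the number separate from 4 to 9 and the number at an unadjusted p under 0.05 from 1 to 4, the last being 0 when tested against a 1.2-fold change. The median reached 0.018 without NC replicate 1, and the 9 separate and 4 at an unadjusted p came without NC replicate 2, and 7 were separate without shMCT-1 replicate 1. With 1 array in a group separation is frequent: among genes with a mean of at least 8, 81.1% were separate and 17.9% at an unadjusted p under 0.05 without NC replicate 2, 77.2% were separate when shMCT-1 replicate 1 was omitted, 61.5% when NC replicate 1 was and 60.4% when shMCT-1 replicate 2 was. Hspa5 turned to -0.077 with a further quantile normalisation and to -0.0090 with median centring, and ran from -0.15 to 0.18 with 1 array left out. Herpud1 ran from -2.34 to 0.018 and Sdf2l1 from -0.61 to 0.10. The other 6 members kept their sign under every alternative. Of 135 member values 129 kept theirs, but alternatives that change only the variance model, the test or the filter cannot turn a sign. Why NC replicate 1 changes these values was not tested.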

Other observations

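Beyond folding itself, genes of transport from the ER to the Golgi differed in both directions. Of 13 measured of 15 listed, 6 were higher and 7 lower, beside 45.8% of all genes lower, with a median of -0.023 (0.014 over all genes) that ran from -0.17 to 0.13 with 1 array left out. Sec24c, a cargo adaptor of the COPII coat, was 10.89 and 10.80 in NC and 10.25 and 10.35 in the arrays labelled shMCT-1, a difference of -0.55 (1.46-fold lower, SE 0.110, adjusted p = 0.882, limma) that was -0.50 without NC replicate 1. Sec23a, its coat partner, had a difference of -0.48 (SE 0.178), and of -0.27 when that array was left out. The receptors that return KDEL-tagged chaperones from the Golgi went apart. Kdelr3 was at 0.38 (10.27 and 10.35 against 10.55 and 10.83) and Kdelr1 at -0.27 (7.96 and 8.03 against 7.67 and 7.78). Kdelr2 was at -0.023 (15.20 and 15.63 against 15.20 and 15.59). Without NC replicate 1 they were, in the same order, at 0.34, -0.31 and -0.24. For Kdelr2, shMCT-1 replicate 1 minus NC replicate 2 was -0.43, and shMCT-1 replicate 2 minus NC replicate 2 was -0.04. Sec24c lies on chromosome 14 and Kdelr3 on chromosome 15, whose genes with a mean of at least 8 had median differences of -0.17 and 0.20.

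The translocon and signal peptidase genes were mostly low on both replicate 1 arrays. NC replicate 1 was the lowest array for 9 of 14 and the highest for 0, against 43.2% and 26.4% of genes with a mean of at least 8. Measured against NC replicate 2, the median was -0.30 for shMCT-1 replicate 1 and -0.033 for shMCT-1 replicate 2. NC replicate 2 was the highest array for 8 of these genes and shMCT-1 replicate 2 for 6. Their median difference was 0.017 with all arrays, -0.17 without NC replicate 1, 0.18 without NC replicate 2, and 0.12 or -0.11 when shMCT-1 replicate 1 or 2 was omitted. Heat shock genes of the cytosol and mitochondria had a median of 0.030, which was -0.0030 after a further quantile normalisation, 0.0040 after median centring and -0.0080 without NC replicate 1. Hsph1, a cytosolic relative of Hyou1, was 12.63 and 12.72 in NC and 13.09 and 12.95 in shMCT-1 (difference 0.34, SE 0.115, and 0.29 without NC replicate 1), and Hspe1, the mitochondrial partner of Hspd1, was 11.25 and 11.90 against 11.90 and 12.36 (0.55, SE 0.281), with 0.22 without NC replicate 1.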
